A study of Homo sapiens with 11 samples.

Results

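The 4 parallel wells of cardiomyocytes collected on Day 113 of culture were compared with one another, gene by gene, among 11 wells of the series. Genes were taken when their mean over the 4 wells reached 5 CPM (counts scaled to the same effective library total). That left 11853 of the 19990 genes in the table, which held 98.975% of the Day 113 counts. At the edge of this rule, CDH24 (5.002 CPM) and ALG6 (5.002 CPM) were just inside, and LOC100126784 (4.995 CPM) and ANKHD1 (4.994 CPM) just outside.

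Cardiomyocytes made from pluripotent stem cells by activating and then blocking Wnt signalling arise from mesoderm, which also gives endothelial, mural and fibroblast cells, and cultures can carry small numbers of cells from other germ layers. Each well of a plate is its own small culture. RNA from a whole well mixes all of its cells. A lower level in bulk RNA therefore cannot tell fewer cells of a type from less RNA per cell.

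WTC11, a widely used line of human cells reprogrammed to pluripotency, supplied all the cells (passage 63). One differentiation with CHIR99021, which inhibits the kinase GSK3, and IWP2, which blocks Wnt secretion, was checked on Day 16 for the share of cells with cardiac troponin T. Parallel wells were then kept without further selection in RPMI1640 with B27 and insulin, and 4 wells were collected on Day 30, 3 on Day 60 and 4 on Day 113. No genotype or added agent differed between the days. The wells are called wells 1 to 4 after their replicate numbers. All come from 1 line and 1 differentiation, so p-values measure the spread between wells only, and day of culture cannot be told apart from collection.

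The Day 113 libraries held 24071375 to 34546715 counts and 18988 to 19394 detected genes. Mitochondrial ribosomal RNA took 2.04% to 2.56% of their counts. No pair of wells agreed within sampling noise (chi-square per degree of freedom from 26.7 to 88.7), so none was counted as a repeat of another. Cardiac identity was clear in every well: the 28 sarcomere genes summed to 58800, 67060, 58530 and 56410 CPM in wells 1 to 4, with none at 0.

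Most genes differed little between the wells. The highest well exceeded the lowest by a median of 1.37-fold (interquartile range 1.23 to 1.59), and 2254 genes (19%) stayed within 1.2-fold. A range of at least 2-fold was reached by 1027 genes (8.66%), at least 3-fold by 261 and at least 10-fold by 46. These ratios are of log2 CPM with a prior count of 2, which pulls the ratios of low genes towards 1. The median coefficient of variation was 14.1%, against 3.11% from counting alone, and 89.6% of the genes varied more than 2 times their counting error. Among the 2174 genes with a mean of at least 100 CPM, 86 (3.96%) ranged 2-fold. Of the 1027 genes, 114 passed the 5 CPM rule only through their highest well, as did 23 of the 46, and those had to differ. With 3 wells in place of 4, the 2-fold count was 532 without well 1 and 601 without well 2.

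The wells did not contribute equally. A gene was taken as deviating when a well was at least 2-fold from the mean log2 CPM of the other 3. Well 1 was higher for 161 genes (1.36%) and lower for 121 (1.02%). Well 2 was higher for 34 (0.287%) and lower for 113 (0.953%). Well 3 was higher for 91 (0.768%) and lower for 15 (0.127%), and well 4 was higher for 49 (0.413%) and lower for 131 (1.11%). Dixon's ratio is the gap to the next well over the whole range. It passed its 95% critical value for the highest well in 310 genes (2.62%) and for the lowest in 405 (3.42%). A small share of genes passes a 95% value by chance alone. Whether these counts exceed that share was not tested, so they do not show that the wells contributed unequally. By the 2-fold rule, well 3 was the one with few low genes and well 2 the one with few high genes. Without a fold cut, well 2 was the highest of the 4 wells for 4434 genes (37.4%), more than any other well. With 1 well left out, 93 (without well 3) and 63 (without well 4) genes were higher in well 2. Without well 2, 213 were lower in well 4, and without well 4, 23 were lower in well 3.

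**Figure D1:**
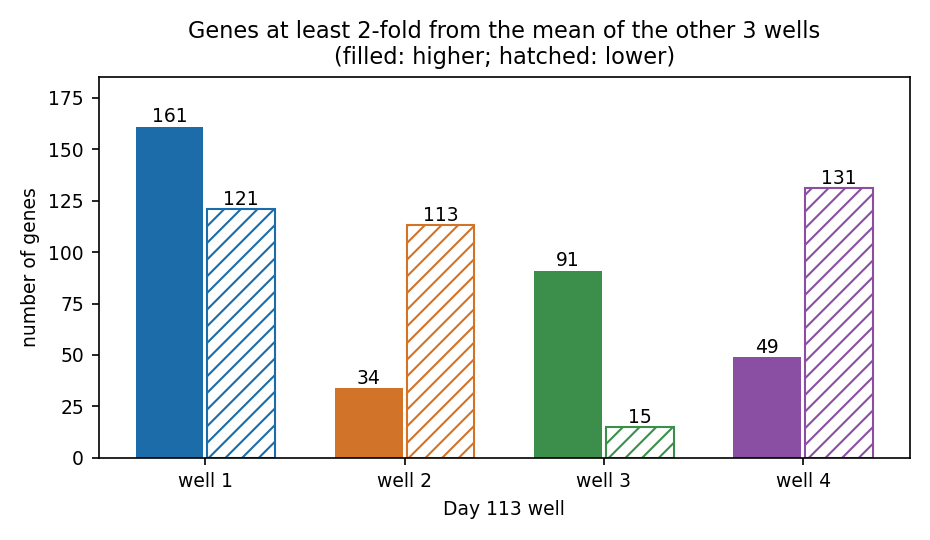
Number of genes (vertical axis) at least 2-fold higher (filled) or lower (hatched) in each Day 113 well than the mean of the other 3 wells, among 11853 genes. Well 1 has 161 higher genes, and well 3 has only 15 lower ones.

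Endothelial genes separated well 1 from well 4. The list holds 25 markers of the cells that line blood vessels, of which 23 passed the 5 CPM rule, 1 of them only through its highest well. A 2-fold range was seen for 21 of the 23 (91.3%, against 8.66% of genes). The highest value was in well 1 for 22 of them (29.6% of all genes were highest there) and the lowest in well 4 for 20 (26.5%). The summed level of the 25 markers was 1471, 742.9, 789.7 and 476.1 CPM in wells 1 to 4, with no marker at 0, against 291.7 to 330.4 CPM on Day 30 and 205.8 to 262.3 CPM on Day 60.

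VWF, the clotting factor stored by endothelium (chr12:5948874-6124770, minus strand, hg38), had 117, 25, 49.6 and 20.4 CPM in wells 1 to 4. PECAM1, an adhesion molecule of endothelial junctions, had 347, 143, 169 and 84.5 CPM. CDH5, the cadherin of the same junctions, had 155, 56.2, 57.6 and 37.6 CPM. In each of these the top well held more than 2 times the next. The transcription factor SOX7 had the largest upward deviation of well 1 (2.19 on the log2 scale), with 28.9, 10.3, 7.62 and 3.09 CPM. SOX18, a related factor, went from 42.9 CPM in well 1 to 6.78 in well 4. S1PR1, a sphingosine-1-phosphate receptor, did not share the order: its values lay between 90.9 and 104 CPM in all 4 wells. ECSCR, a surface protein of endothelium, had 14.4, 13.8, 11.6 and 2.61 CPM, so that 3 wells were alike and well 4 stood alone.

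Some endothelial genes outside the list came up through their values, so that their order follows from how they were picked. Among the largest upward deviations of well 1, PRND, which encodes a prion-like protein, had 176, 58.3, 58.4 and 31.5 CPM, and CD93, a receptor of endothelial and myeloid cells, had 280, 99.4, 131 and 74.9 CPM. The 4 genes whose pattern over the wells lay closest to that of SOX7 among the 1027, by distance between standardised log2 CPM, were TRIM47, GPC4, CPNE2 and PCDH12. PCDH12, a protocadherin of endothelial junctions, had 67.3, 35.4, 32.9 and 18.6 CPM, and RNF14 overlaps it.

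Notch pathway genes were also mostly highest in well 1. Notch receptors are cut when a ligand on a neighbouring cell binds them, and the freed part turns on HES and HEY repressors. Of 12 members past the 5 CPM rule, 11 were highest in well 1 (29.6% of all genes were) and 7 (58.3%, against 8.66%) ranged 2-fold. The lowest value fell in well 4 for 7 (26.5% of all genes), in well 2 for 3 (29.8%) and in wells 1 and 3 for 1 each. Among the receptors, NOTCH3, which is known from mural cells, had 121, 37.4, 79.6 and 40.6 CPM and NOTCH1 had 82.0, 41.2, 50.7 and 31.9 CPM. The ligand DLL4, typical of arterial and sprouting endothelium, had 74.6, 43.7, 36.6 and 18.9 CPM. The target HEY1 had 25.7, 16.2, 11.9 and 8.51 CPM, whereas HEY2, also made by ventricular cardiomyocytes, ranged only 1.30-fold. HES4 was the exception, highest in well 2 at 77.3 CPM.

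Collagens and other matrix genes were also highest in well 1, but well 3 came next rather than level with well 2. Of 18 fibrillar and basement membrane collagens past the rule, 16 were highest in well 1 (29.6% of all genes were) and 12 (66.7%, against 8.66%) ranged 2-fold. COL1A1, the main chain of type I collagen, had 4576, 2059, 3978 and 1691 CPM. COL6A3 (chr2:237324003-237414375, minus strand) had 500, 135, 315 and 156 CPM. COL4A5 and COL4A6, chains of a separate basement membrane network, differed by 1.31-fold and 1.25-fold and were highest in well 4.

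Of 31 matrix and matricellular genes, 20 were highest in well 1 and 8 in well 3, against 29.6% and 15.2% of all genes. A 2-fold range was seen for 15 (48.4%, against 8.66%). Fibronectin (FN1) had 3099, 819, 1786 and 985 CPM, and THBS2, a thrombospondin, had 197, 51.3, 111 and 53.8 CPM. Fibrillin-1 (FBN1), the core of elastic microfibrils, was as high in well 3 (445 CPM) as in well 1 (442 CPM), with 172 and 258 CPM in wells 2 and 4. ELN, the elastin gene, was highest in well 3 at 89.3 CPM and lowest in well 2 at 44.9.

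The marker lists for matrix-making and mural cells gave a mixed picture. Of 13 epicardial and fibroblast markers past the rule, 6 (46.2%) ranged 2-fold and 11 were highest in well 1, against 8.66% and 29.6% of all genes. Most of those 6 are matrix genes (COL1A1, COL1A2, COL3A1 and TNC), with THY1 and FAP beside them. WT1 and TBX18, transcription factors of the epicardium, ranged 1.53-fold and 1.36-fold and were highest in well 2. Their summed level was 13380, 7074, 11540 and 5663 CPM in wells 1 to 4, over 18 markers with none at 0. Among 12 smooth muscle and mural markers 6 ranged 2-fold: PDGFRB had 130, 57.4, 103 and 66.7 CPM, while RGS5, a pericyte marker, ranged 1.22-fold.

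**Figure D2:**
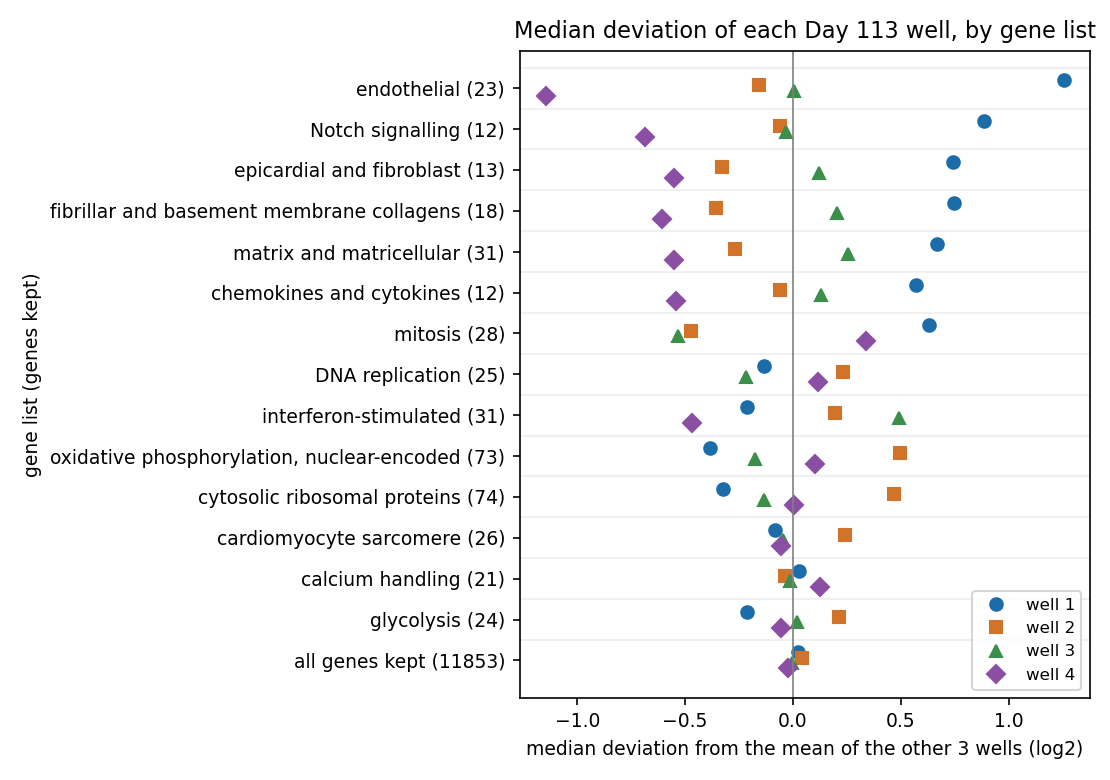
Median deviation of each well from the mean of the other 3 (log2, horizontal axis) over the genes of each list that passed the 5 CPM rule, with the number of genes in brackets. Endothelial genes run from 1.26 in well 1 to -1.15 in well 4, mitosis genes split wells 1 and 4 from wells 2 and 3, and the medians over all genes lie between -0.02 and 0.04.

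Chemokine and cytokine genes showed no single order: 8 of 12 past the rule were highest in well 1 (29.6% of all genes were), and 7 (58.3%, against 8.66%) ranged 2-fold. TNFSF10, the death ligand TRAIL, had 18.8, 8.10, 6.36 and 4.41 CPM. CXCL14 went the other way, with 2.17 CPM in well 1 and 14.5, 25.7 and 19.6 CPM in wells 2 to 4. SLC25A48 overlaps CXCL14.

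Mitosis genes divided the wells 2 against 2. They encode the kinases, motors and checkpoint proteins of dividing cells and are known to be made mainly in G2 and M phase. Of 28 members past the rule, 25 were highest in well 1 (29.6% of all genes were) and 3 in well 4 (17.8%), and the lowest value fell in well 2 for 15 (29.8% of all genes were lowest there) and in well 3 for 13 (18.8%). A 2-fold range was seen for 16 (57.1%, against 8.66%).

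KIF20A, a kinesin of the dividing spindle, had 53.4, 14.3, 13.3 and 33.7 CPM in wells 1 to 4. CENPF, a kinetochore protein, had 94.1, 27.0, 36.5 and 69.5 CPM, and the proliferation marker MKI67 had 82.8, 36.3, 44.4 and 64.2 CPM. Wells 1 and 4 did not overlap wells 2 and 3 in any of these. CDK1, the kinase that starts mitosis, broke the order with 34.9, 38.2, 24.8 and 42.7 CPM. KIF20A (chr5:138178719-138187715, plus strand) overlaps BRD8 and CDC23, so its counts are uncertain.

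The order was not that of cell cycle genes as a whole. Of 25 DNA replication genes past the rule, 1 ranged 2-fold (4.00%, against 8.66%), 11 were highest in well 2 (37.4% of all genes were) and 11 lowest in well 1 (24.8%). The summed level of the 29 mitosis genes was 1277, 674.4, 695 and 1102 CPM on Day 113, 1051 to 1294 CPM on Day 30 and 1665 to 2323 CPM on Day 60. Wells 2 and 3 were thus below all wells of the earlier days. Endothelial markers were lowest in well 4, where mitosis genes were high. Mitosis genes made in cardiomyocytes cannot be told apart from those made in other cells of the well.

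Promoters of these genes are shown because members moved together. TTTGAA is the cell cycle homology region element, at which repressor and activator complexes are known to act on G2 and M genes. It was searched on both strands in RefSeq promoters (GRCh38.p14, 250 bases before to 50 after the start) and was in 17 of 23 mitosis genes with a promoter in the table (73.9%), against 15.2% of all 35093 promoters and 13.9% of the 9354 kept genes that had one. CCAAT was in 19 of 23 (82.6%), against 34.6% of all promoters and 43.6% of the kept genes. Of the 17 genes with TTTGAA 9 ranged 2-fold, as did 6 of the 6 without it. The stretches below lie upstream of the start sites of TOP2A (chr17:40418015-40418074, minus strand), MKI67 (chr10:128126438-128126497, minus strand) and CDC20 (chr1:43358889-43358948, plus strand), outside annotated exons. Each is written 5′ to 3′ on the gene's strand, with each match or its reverse complement in capitals.
TOP2A: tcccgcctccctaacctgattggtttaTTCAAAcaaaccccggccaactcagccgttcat
MKI67: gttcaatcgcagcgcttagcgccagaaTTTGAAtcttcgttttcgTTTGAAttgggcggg
CDC20: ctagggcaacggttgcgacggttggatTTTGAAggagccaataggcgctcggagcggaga

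Well 1 nearly lacked a group of eye and forebrain genes. The list of 20 eye-field and forebrain transcription factors was drawn up after the values were seen, and its counts are a description only. Of the 18 in the table, 9 passed the rule, 2 of them only through their highest well. All 9 were lowest in well 1, and 6 were highest in well 3 and 3 in well 4. Over all 18, the sum was 10.28, 85.59, 183.9 and 158.5 CPM in wells 1 to 4, with 6, 1, 0 and 1 of them at 0. On Day 30 it was 16.59 to 66.41 CPM and on Day 60 it was 94.38 to 262.3 CPM.

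RAX, which sets up the eye field, had 0.202, 2.74, 11.5 and 12.4 CPM and passed the rule through well 4 only. PAX6, the factor needed for eye formation, had 1.41, 12.9, 23.7 and 21.6 CPM; ELP4 overlaps it. HMX1 had 0.173, 6.82, 11.2 and 11.1 CPM. In these and in OTX2 (0.866, 7.16, 14.4 and 17.7 CPM) well 1 lay far below the others and well 2 between.

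Pigment genes followed. TYRP1 (chr9:12685439-12710290, plus strand), an enzyme of melanin synthesis, had 4.30, 53.4, 122 and 57.0 CPM. DCT, a related enzyme, had 11.7, 102, 244 and 100 CPM, and the melanosome fibre protein PMEL had 16.2, 127, 208 and 135 CPM. Well 3 was highest in each. CDK2 overlaps PMEL. The list of 12 melanin and melanosome genes was also drawn up afterwards. The rule was passed by 5 of them, 1 of these (TYR) only through well 3. A 2-fold range was seen for 4, and those 4 were lowest in well 1. MITF, a regulator of pigment genes that cardiomyocytes also make, was the exception, with 147, 97.9, 136 and 150 CPM. MLANA, a defining melanosome gene, was under 2 CPM in every well.

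Other genes were also lowest in well 1. RELN, the secreted protein reelin, had 19.1, 66.2, 208 and 149 CPM and CPAMD8 had 22.9, 144, 266 and 202 CPM. CYP1B1, an oxidising enzyme of the eye and other tissues (RMDN2 overlaps it), had 6.67, 36.7, 127 and 50.0 CPM. These 3 were highest in well 3, like the pigment genes, whereas OC90 (0.231, 6.79, 14.9 and 18.6 CPM) was highest in well 4. SPP1, osteopontin, was 0.0577 CPM in well 1 (2 counts) and 4.87, 5.82 and 9.75 CPM in the others, and passed the rule through well 4 only.

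Collagens of cartilage and of the eye's vitreous body had another order than COL1A1. COL9A2 had 2.94, 37.6, 49.9 and 52.3 CPM, COL9A1 had 6.38, 13.8, 17.5 and 28.6 CPM and COL11A1 had 10.9, 22.5, 37.1 and 41.8 CPM. All 3 were lowest in well 1 and highest in well 4, whereas COL1A1 was highest in well 1 and lowest in well 4. SOX9, a factor of cartilage and other tissues, was highest in well 1 at 25.1 CPM, and ACAN, the cartilage proteoglycan, had 5.63 CPM there and under 1 CPM in the other 3 wells.

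Lens crystallins set well 2 apart. Crystallins are the packed proteins that make the lens clear. CRYBB1 had 2.94, 37.6, 0.685 and 2.69 CPM in wells 1 to 4. CRYBB2 had 3.58, 37.6, 0.941 and 3.17 CPM, and CRYBA4 had 0.924, 20.1, 0.542 and 1.44 CPM. Well 2 was more than 10-fold above the next well in each. CRYBA1 had 0.895, 20.6, 0.999 and 2.25 CPM. These 4 genes passed the 5 CPM rule only through well 2, so their difference is no support for anything further.

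Of 9 lens and retinal pigment genes past the rule, 4 were highest in well 2 (37.4% of all genes were), 3 in well 3 and 2 in well 4. Below the rule, CRYGC, CRYAA and MIP are given as examples that were highest in well 2, not as a count. CRYGC had 6.07 CPM in well 2 and no count in the other 3 libraries, where 3 counts would be 0.0866, 0.0856 and 0.120 CPM. CRYAA had 9.64 CPM in well 2 and at most 0.260 elsewhere, and MIP, the lens fibre water channel, had 3.82 CPM and at most 0.401. SPRYD4 overlaps MIP. Crystallin genes resemble one another in sequence, so reads may be split among them. CRYBB1 (chr22:26599278-26618088, minus strand) and CRYBA4 (chr22:26621964-26630672, plus strand) are neighbours. MIAT, which follows them on that chromosome (chr22:26646428-26676475, plus strand), did not share their order.

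The crystallins of well 2 were below most Day 60 wells. CRYBB1 ranged from 23.8 to 216 CPM over the 3 Day 60 wells and CRYBA4 from 16.8 to 112 CPM, and both were under 1 CPM in every Day 30 well. BHMT, an enzyme of methionine synthesis, had no count in well 1 and 20.9, 0.0856 and 0.562 CPM in wells 2 to 4, with 16.0 to 168 CPM on Day 60. It too passed the rule through well 2 only. Its locus overlaps DMGDH. The genes closest to BHMT in pattern, NRTN, WDR74, LINC01405 and SSBP1, ranged only 2.04-fold to 2.32-fold. The crystallins named above peaked in well 2, where those past the rule had to be high. TYRP1, DCT and PMEL peaked in well 3.

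**Figure D3:**
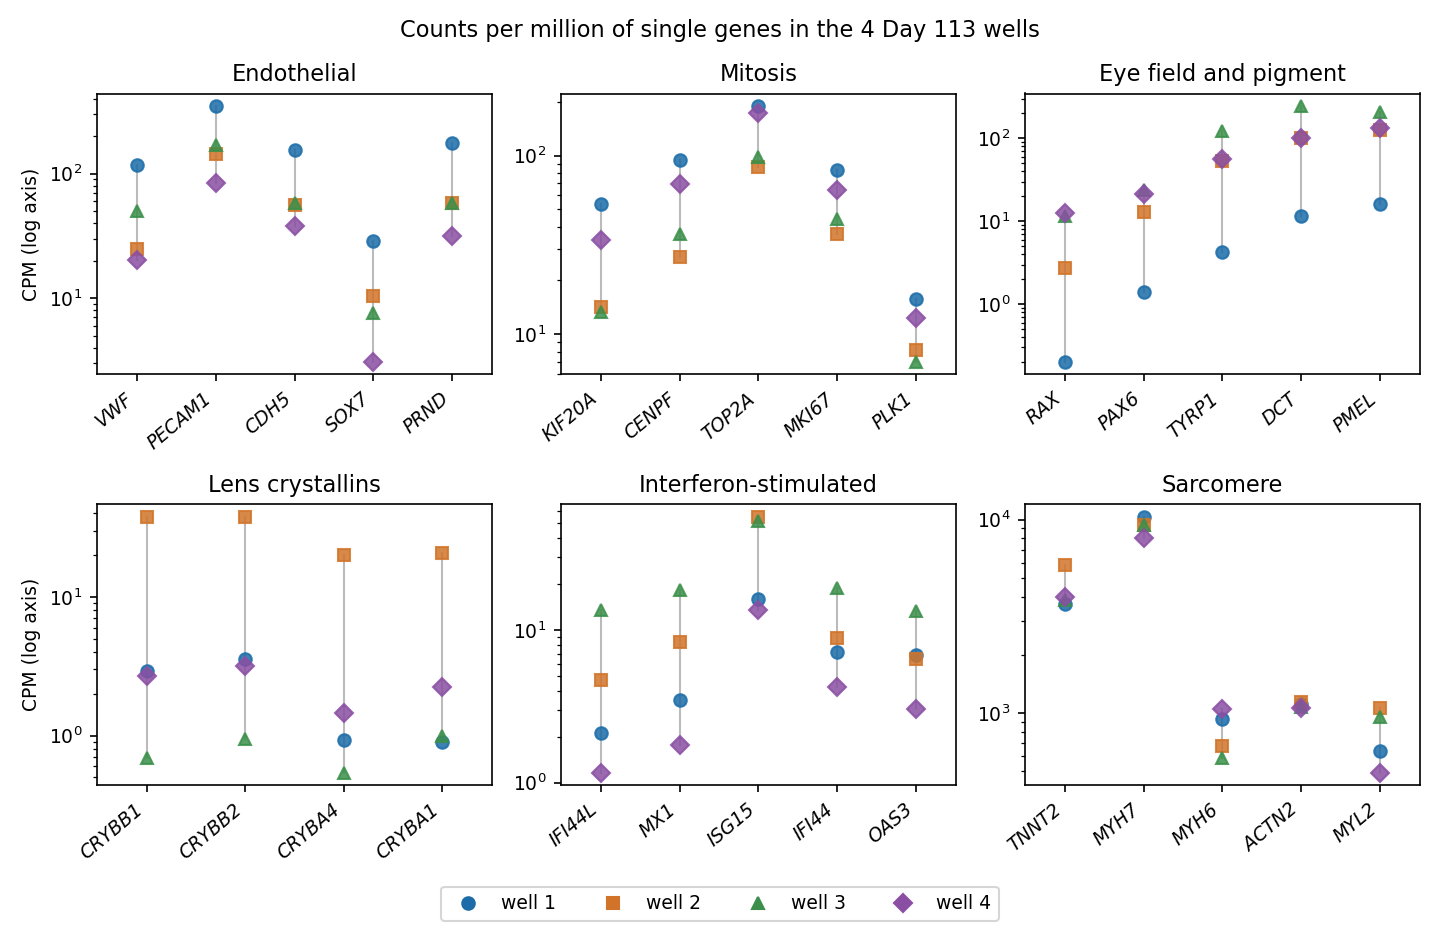
CPM (log axis) of single genes in the 4 Day 113 wells, 1 point a well, in 6 groups. Well 1 is highest for endothelial genes and lowest for eye-field and pigment genes, well 2 stands alone for crystallins, well 3 leads the interferon-stimulated genes except ISG15, and the sarcomere genes shown range at most 2.17-fold.

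Genes for energy production and protein synthesis were shifted in well 2 by a small amount but almost without exception. Of 73 nuclear-encoded subunits of oxidative phosphorylation, the respiratory chain that cardiomyocytes rely on, 71 were highest in well 2 and 63 lowest in well 1 (24.8% of all genes were). Of 74 cytosolic ribosomal proteins 74 were highest in well 2 (37.4% of all genes were) and 61 lowest in well 1. The median deviation of well 2 was 0.50 and 0.47 on the log2 scale. Only 8 (11%) and 2 (2.70%) ranged 2-fold, near or under the 8.66% of all genes.

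Transcript length moved with this shift. Over the 20% of genes with the shortest transcripts, up to 2283 nt, the median deviation of well 2 was 0.335, and over the 20% with the longest, from 6189 nt, it was -0.297. Well 1 was the reverse, at -0.168 and 0.166. Wells 3 and 4 spanned -0.0813 to 0.0893. In well 2 the median also went from -0.152 in the 20% of genes lowest in GC content to 0.263 in the 20% highest. Among the shortest were 50 of the 73 respiratory and 48 of the 74 ribosomal genes. The part of transcript length in their order was not tested.

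**Figure D4:**
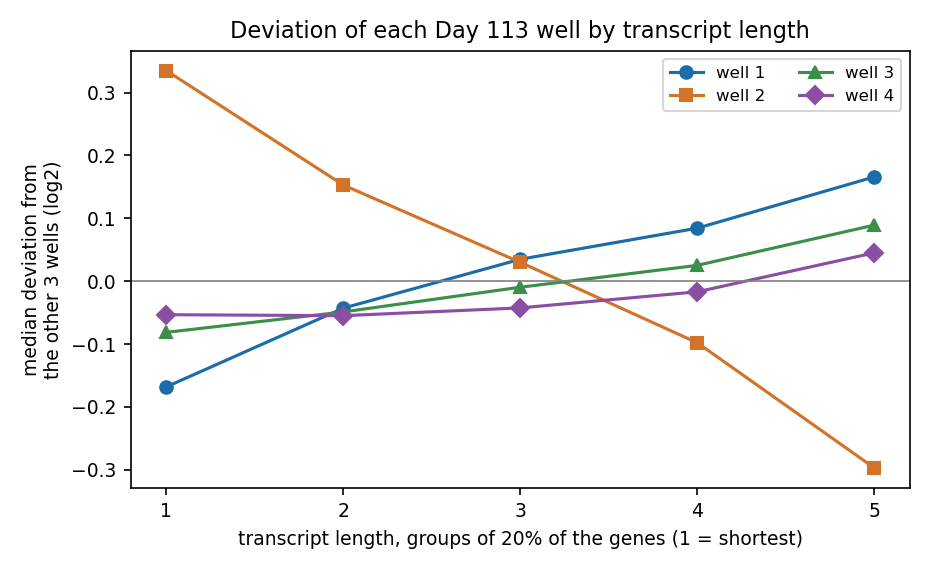
Median deviation of each Day 113 well from the other 3 (log2, vertical axis) over 5 groups of 20% of the genes by transcript length (horizontal axis). Well 2 falls from 0.335 to -0.297 as transcripts lengthen, and well 1 climbs from -0.168 to 0.166.

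Named genes of well 2 lay on several parts of that scale. TTN, whose transcript is the longest in the annotation used (109224 nt), had 6744, 2535, 5573 and 5956 CPM; TTN-AS1 and CCDC141 overlap it. The lowest genes of well 2 were ANKRD36B (9.70, 0.862, 5.93 and 6.70 CPM), SCN7A (13.7, 1.2, 5.48 and 7.86 CPM) and COL6A6 (16.9, 2.81, 12.8 and 13.6 CPM), all with transcripts of at least 6067 nt. ANKRD36B and SCN7A passed the 5 CPM rule through well 1 only. Among genes with a mean of at least 100 CPM, KRT19, an epithelial keratin, led in well 2 with 61.0, 186, 121 and 99.6 CPM. It was followed by the AP-1 gene JUN (110, 217, 126 and 109 CPM) and the peroxidase PRDX5 (97.6, 232, 139 and 145 CPM).

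Interferon-stimulated genes were highest in well 3 and lowest in well 4. These genes are turned on when interferon activates the transcription factor complex ISGF3 and encode proteins that limit viruses. Of 44 listed, 38 were in the table and 31 passed the rule, 2 of them only through their highest well. Of the 31, 19 were highest in well 3 and 9 in well 2, against 15.2% and 37.4% of all genes, so that well 2 took fewer than its share. In well 4, 22 were lowest (26.5% of all genes were), and 12 (38.7%, against 8.66%) ranged 2-fold. The sum of the 38 was 1503, 1920, 2064 and 1258 CPM in wells 1 to 4, against 908 to 1044 CPM in the 4 Day 30 wells and 939.2 to 1026 CPM in the 3 Day 60 wells, so each Day 113 well lay above both.

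Their promoters are shown for the same reason as those above. A core of the interferon-stimulated response element, GAAA and GAAA with any 2 bases (NN) between them, searched on both strands, was in 21 of 26 genes of the list with a RefSeq promoter (80.8%), against 3.58% of all promoters and 3.84% of kept genes. Of the 21 genes 11 ranged 2-fold, and of the 5 without it 1 did. The stretches lie upstream of the start sites of IFI6 (chr1:27672314-27672373, minus strand), IFI44L (chr1:78620259-78620318, plus strand) and IFIT3 (chr10:89332410-89332469, plus strand), outside annotated exons. Capitals mark the match, read as its reverse complement in IFIT3.
IFI6: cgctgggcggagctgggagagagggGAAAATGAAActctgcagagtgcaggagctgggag
IFI44L: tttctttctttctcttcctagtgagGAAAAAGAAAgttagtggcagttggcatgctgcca
IFIT3: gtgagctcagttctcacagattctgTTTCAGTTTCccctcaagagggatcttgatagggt

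IFI6 had 49.5, 130, 142 and 28.6 CPM in wells 1 to 4, and the ubiquitin-like protein ISG15 had 15.9, 54.9, 51.8 and 13.6 CPM, so that wells 2 and 3 were level and apart from wells 1 and 4. IFIT3 had 7.79, 11.4, 16.4 and 6.02 CPM. IFI44L had 2.11, 4.72, 13.5 and 1.16 CPM, and MX1, a GTPase that blocks viral replication, had 3.49, 8.36, 18.3 and 1.77 CPM. These are the 2 members that passed the rule through well 3 only, so they had to be high there. The sensor DDX58 (1.21-fold), STAT2 (1.23-fold) and DDX60 (1.19-fold) hardly differed. SAMD9L broke the order with its highest value, 14.9 CPM, in well 1.

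Other genes also deviated upwards in well 3. GFAP, the intermediate filament of astrocytes and Müller glia, had 1.76, 1.0, 16.9 and 1.73 CPM and passed the 5 CPM rule through well 3 only; CCDC103 overlaps it. CLDN19, a tight junction protein, had 0.202, 3.49, 14.1 and 4.93 CPM and also passed through well 3 only, so both had to be high there. CLDN19 was lowest in well 1, as TYRP1, DCT and PMEL were, and had 3.70 to 8.03 CPM on Day 60. Nearest to GFAP in pattern were TENM2 (17.0, 14.6, 34.4 and 15.8 CPM) and PRELP (9.53, 8.74, 22.7 and 8.87 CPM), and only 8 of 1026 genes came within a distance of 0.5, against 80 for SOX7. Of the neural and neural crest list 6 genes passed the rule and 1 ranged 2-fold (16.7%, against 8.66% of all genes).

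Well 4 was marked more by low genes than by high ones. Its lowest were endothelial or interferon-stimulated: ECSCR and MX1, given above, and HSPA12B, a heat shock family member made by endothelium, with 15.9, 9.37, 9.70 and 2.45 CPM. The highest were MIAT, a long noncoding RNA (0.433, 1.5, 9.59 and 17.7 CPM), CDH23, a cadherin of sensory hair cells (0.491, 4.69, 7.93 and 23.8 CPM) and TENM1 (0.231, 1.42, 8.47 and 10.2 CPM). All 3 passed the 5 CPM rule through well 4 only, so they had to be high there. They were lowest in well 1, as the type IX and XI collagens were. EYA4, MET, GRIA4 and MARCH1 were closest to MIAT in pattern, and GRIA4 too passed through well 4 only. MIATNB overlaps MIAT, C10orf105 overlaps CDH23 and STAG2 overlaps TENM1.

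Sarcomere genes had a somewhat wider median range than genes in general, and a 2-fold share near that of all genes. The median of 26 past the rule was 1.525-fold, against 1.37-fold over all genes, and 3 ranged 2-fold (11.5%, against 8.66%): TTN, MYL2 (634, 1068, 960 and 493 CPM) and the skeletal actin ACTA1 (108, 53.7, 66.4 and 33.0 CPM). ACTN2, the actinin of the Z-disc, had 1120, 1134, 1080 and 1066 CPM. MYBPC3 (1.14-fold) and LDB3 (1.06-fold) hardly differed. TNNT2, cardiac troponin T, had 3681, 5816, 3854 and 3985 CPM, with well 2 above the rest. Of 26 sarcomere genes 16 were highest in well 2 (37.4% of all genes were), and 10 of the 26 were among the shortest transcripts.

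Of 21 calcium handling genes 1 (4.76%) ranged 2-fold, and of 24 glycolysis genes, 16 heat shock genes, 16 p53 targets and 21 lysosome genes 0 did. All 5 lists lie under the 8.66% of all genes. Also under it were hypoxia and fatty acid oxidation (each 1 of 21, 4.76%), cholesterol synthesis (1 of 28, 3.57%) and antioxidant genes (1 of 20, 5%). Above that share lay atrial and natriuretic genes (2 of 9, 22.2%), immediate early genes (3 of 18, 16.7%) and the integrated stress response (4 of 25, 16%). WNT signalling (2 of 14, 14.3%), ion channels (2 of 17, 11.8%), TGF-beta and BMP targets (2 of 18, 11.1%) and cardiac transcription factors (2 of 20, 10%) lay near it. These lists had at most 4 such genes each, so no difference from the share is read from them. Among lists for other cell types, endoderm and liver genes summed to 31.17 to 62.39 CPM over 24 markers, with 3 to 11 at 0, and skeletal muscle markers to 392.1 to 522.5 CPM over 9. For macrophage and blood cells only 5 of 19 markers were in the table, at 75.74 to 160.6 CPM. Epithelial markers summed to 1313, 1981, 1489 and 1190 CPM in wells 1 to 4. The 4 of 16 that passed the rule were all highest in well 2 (37.4% of all genes were), too few to describe the list.

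Over the 1027 genes with a 2-fold range, the patterns were unevenly used. The commonest was highest in well 1 and lowest in well 4, with 247 genes (24.1%, against 10.3% of all genes kept), the pattern of the endothelial list. Next came highest in well 1 and lowest in well 2 (174 genes, 16.9% against 14.5%), the pattern of FN1, and highest in well 2 and lowest in well 1 (136 genes, 13.2% against 16.0%), the pattern of the respiratory genes. Well 3 highest with well 1 lowest, the pattern of the pigment genes, took 78 genes (7.59% against 3.8%). Wells 1 and 2 were the pair most apart, with 525 genes at least 2-fold different, and wells 3 and 4 the least, with 199. The first 2 of 3 principal components held 49.7% and 32.3% of the variance between the wells.

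Spread between wells was then set against that of the earlier days. Each well was given the median, over the 11853 genes, of its absolute deviation from the mean of its day, scaled for the number of wells. This was 0.1615, 0.2151, 0.1125 and 0.1358 log2 units in wells 1 to 4 of Day 113, 0.09918 to 0.1084 in the 4 Day 30 wells and 0.122 to 0.1396 in the 3 Day 60 wells. All Day 113 wells lay above all Day 30 wells. The difference of means was 0.0535 (two-sided exact permutation test, p = 0.0286, the smallest that 4 against 4 allows, 0.0572 adjusted over both comparisons). That test splits the 8 wells freely, although the deviations within a day are taken from 1 shared mean and are not independent. Same-numbered wells of these days were treated as pairs, and with the pairing kept an exact sign-flip test over the 4 pairs gave p = 0.125, the smallest it allows, with Day 113 higher in 4 of 4. Without well 2 the difference was 0.0194 (exact permutation p = 0.0571). Against Day 60 it was 0.0272 (exact permutation p = 0.371), and the ranges overlapped.

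**Figure D5:**
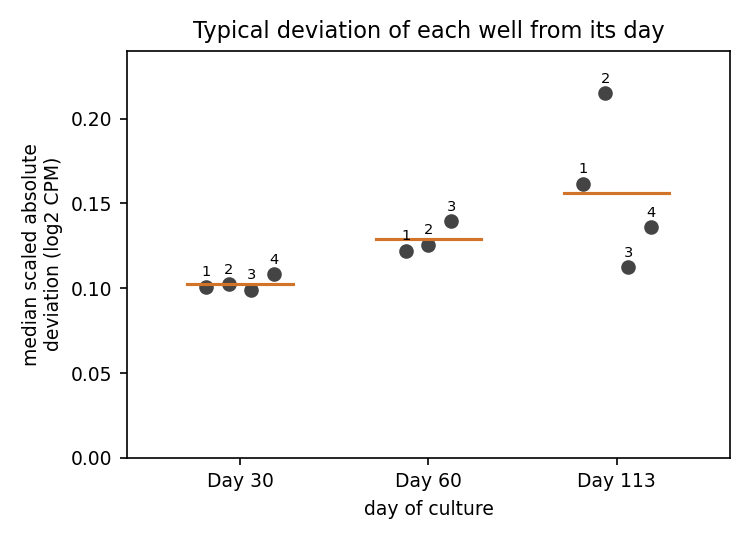
Median scaled absolute deviation from the mean of the day (log2 CPM, vertical axis) for each of the 11 wells, labelled by replicate number, with the mean of each day as a line. Day 113 wells lie between 0.1125 and 0.2151, above all Day 30 wells, and well 2 is the highest.

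In the 11154 genes with a mean of at least 5 CPM on all 3 days, 691 (6.2%) ranged 2-fold on Day 113, 190 (1.7%) on Day 30 and 179 (1.6%) over the 3 wells of Day 60. Mitosis genes gave 16, 0 and 0 of 28. Matrix genes gave 14 of 29 on Day 113, 12 on Day 30 and 3 on Day 60. Across genes, the SD on Day 113 had a Spearman rho of 0.289 with that on Day 30 and 0.257 with that on Day 60, where genes share expression level and length and are not independent. Of the 558 genes with the highest SD on Day 113, 165 (29.6%) were among the 558 of Day 30.

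Gene by gene, spread was tested with limma on the scaled absolute deviations (a Levene-type test) over all 19990 genes. Against Day 30, spread was wider for 82 genes (0.41%) and narrower for 29 (0.145%) at a Benjamini-Hochberg adjusted p under 0.05, 17 and 2 of them among the 11853. Against Day 60, it was wider for 6 (0.03%) and narrower for 0, with 1401 wider and 1312 narrower at an unadjusted p under 0.05. ISG15 had the largest increase (0.86 ± 0.10 log2 units, SE, limma adjusted p = 0.0128): its Day 30 wells held 11.8, 11.9, 8.75 and 13.2 CPM.

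CCNE1, the cyclin of S phase entry, followed (0.55 ± 0.09, limma adjusted p = 0.0440), with PTCHD4 (0.51 ± 0.09, limma adjusted p = 0.0493) and IQGAP3 (0.51 ± 0.09, limma adjusted p = 0.0445). IQGAP3, a scaffold protein of dividing cells, had 23.8, 9.34, 10.1 and 20.5 CPM on Day 113 and 18.5 to 26.2 CPM on Day 30. TOP2A, the topoisomerase of mitosis, had 189, 86.2, 98.7 and 173 CPM on Day 113 and 152 to 185 CPM on Day 30 (0.46 ± 0.08, limma adjusted p = 0.0440). Narrower spread was called for SFRP2, a secreted Wnt antagonist (-0.99 ± 0.10, limma adjusted p = 0.00675), whose Day 30 wells held 13.3, 50.2, 60.3 and 15.4 CPM, and for DSC3, a desmosomal cadherin (-0.30 ± 0.05, limma adjusted p = 0.0463).

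All 17 genes called wider had their largest gap between the second and the third value, as 2844 genes (24%) of all those kept did. The 2 higher wells were 1 and 3 for 6 genes, 2 and 3 for 5, and 1 and 4 for 2. That shape makes the 4 deviations of a gene nearly equal, which the test favours. Genes that deviate in 1 well, such as the crystallins, were not called. With the replicate number as a block, 0 of the 11853 genes were called wider and 1 narrower than on Day 30. With any Day 113 well left out, 0 were called wider.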

How the data were processed

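The authors deposited a table of raw counts, whole numbers per gene symbol (19990 rows), for the 11 libraries. Per the labels' protocols, 500 ng of RNA a sample went into poly(A)-selected libraries read as paired 150-bp ends. STAR 2.5.3a, featureCounts 2.0.3 and hg38 are named in the submitters' processing notes. The annotation and any use of strand are not given in the sources used here, so overlapping and near-identical genes are uncertain. The authors also deposited TPM values for the same genes. These were not used, because the gene lengths that they imply differed a median of 10.98-fold between the 4 Day 113 wells.

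Counts were scaled with TMM over the 11 libraries (edgeR 4.0.16), and log2 CPM used a prior count of 2. A well's deviation is its log2 CPM minus the mean of the other 3. Wells within Day 113 have no contrast and were given no test. Spread between days was tested with limma 3.58.1 on scaled absolute deviations, Benjamini-Hochberg adjusted over 19990 genes. On simulated counts at the Day 113 against Day 30 design, with 19990 genes, it recovered 13 of 100 genes with an added SD of 1 (natural log) and 3 of 100 with 0.5, called 9 unchanged genes, and called 0 in data with no change, where 8.93% of genes had an unadjusted p under 0.05. One value a well was compared by a two-sided exact permutation test and, for the paired days, an exact sign-flip test added after seeing the data. An interval was not drawn for single wells, and counting error is given as a coefficient of variation. A floor of 3 counts covers counting error only, since the protocols name no molecular identifiers.

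The genes named were, for each well, the 4 highest and 3 lowest deviations, the 3 highest at a mean of at least 100 CPM, members of described lists, the 4 largest increases and decreases in spread called, and the 4 genes nearest in pattern to each leading gene. TOP2A in the test of spread, S1PR1 and other exceptions are named after their values were seen. The members and the 42 gene lists were chosen with earlier results of these data known, and 2 further lists were added after the values were seen. Lengths are of the longest GENCODE v29 transcript, matched by symbol for 97.7% of kept genes, and positions are from that annotation (GRCh38). Deviations of same-numbered wells on Day 113 and Day 30 correlated across genes (r = 0.164, 0.124, 0.136 and 0.185), so the numbers were treated as pairing those days. With Day 60 they were 0.169, 0.298 and 0.00427, of like size or larger except in well 3. Wells of unlike number gave -0.193 to 0.0804 with Day 30 and -0.201 to 0.0365 with Day 60. Only the Day 30 pairs were given a sign-flip test, whereas the replicate block in the tests of spread covered the wells of all days. The alternatives were other scalings, prior counts, filters, folds and centres, the block, and each well left out. DESeq2 1.42.0 gave size factors only.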

Additional observations from a re-analysis of the deposited data

Results flagged for a closer look

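Values were checked for a well far from the other 3: the gap from the highest or the lowest well to the next was divided by the whole range and set against Dixon's 95% critical value for 4 samples. Chance flags about 1 group in 20, but most of the named genes were picked for a well that lies far out, so that rate does not apply to them. Of 78 values checked (33 named genes, 37 lists and measures of the libraries), 6 passed. In well 1, SPP1 (0.0577 CPM) and the homeobox gene HMX1 (0.173 CPM) were far below the other 3 wells. In well 2, COL6A6, a chain related to type VI collagen, was at 2.81 CPM, below the other 3. In well 4, ECSCR was at 2.61 CPM. Well 2 also stood above the others in the median centred log2 CPM of the cardiomyocyte sarcomere list (0.18) and of the heat shock list (0.145), both small differences. They were the only lists of the 37 to pass, which is near the 1 in 20 that chance flags. GFAP, highest in well 3, had a gap of 0.819 of its range and did not pass.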

How the results depend on the processing

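Each result was recomputed with 1 choice changed at a time. The median deviations of the 9 lists kept their direction in every setting tried and moved by less than 1 SD between wells. That SD is taken over the 4 well medians of the same list. A large deviation widens it, so this bound is loose and says little about stability. With TMM over the 4 Day 113 libraries, DESeq2 size factors, library totals or a prior count of 0.5, all counts of genes within Day 113 stayed within 1.5 times. The number with a 2-fold range rests on the filter and the fold: 374 at a mean CPM of at least 20, 7131 with no filter, 261 at 3-fold and 3946 at 1.5-fold. At a mean CPM of at least 20, the genes higher in wells 1 to 4 were 66, 7, 23 and 5 and the genes lower 28, 42, 1 and 48. With no filter they were 1285, 1224, 1484 and 1516 higher and 1682, 1766, 1017 and 1128 lower. An alternative chosen after seeing the data, the middle 60% of transcript length, tests fewer genes and gave 471 with a 2-fold range, 94, 11, 50 and 25 higher and 63, 30, 7 and 79 lower. Leaving out each well in turn gave 532 (without well 1) to 874 genes with a 2-fold range, and 601 without well 2. For wells 1 to 4 it gave 125 to 234, 38 to 93, 81 to 111 and 39 to 72 higher, and 123 to 136, 121 to 164, 20 to 23 and 95 to 213 lower. Beyond 1.5 times lay the 532 and 601 with a 2-fold range, 93 and 63 higher in well 2 without wells 3 and 4, 213 lower in well 4 without well 2, and 23 lower in well 3 without well 4. PMEL in well 4 turned from above to below the others without well 1 (-0.26, in a range up to 1.58 over the wells left out).

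Tests of spread, counted over the 11853 genes, were the least stable. Against Day 30, wider and narrower were 17 and 2. These became 9 wider with squared deviations, 0 and 0 with deviations from the median, and 27 and 8 with a prior count of 0.5. They became 1 narrower when only those genes were tested, and 0 and 1 with the replicate block. With a well left out they were 0 to 2 wider and 0 to 1 narrower. Against Day 60, the 1 wider became 4 with squared deviations, 0 with deviations from the median, 10 with a prior count of 0.5, 6 when only those genes were tested and 0 with the replicate block. Without 1 of the wells it was 0 to 65 wider and 0 to 373 narrower, the highest counts being without a Day 60 well, where the 2 wells left have equal deviations by construction. The typical deviation against Day 30 passed 0.05 neither with deviations from the median (0.0432, exact permutation p = 0.0571) nor, in a test chosen after seeing the data, with same-numbered wells as pairs (replicate block, 0.0535, exact sign-flip p = 0.125, the smallest 4 pairs allow). It ranged from 0.0194 to 0.0760 with a Day 113 well left out. Against Day 60 it turned to -0.00698 without well 2 (exact permutation p = 0.700), in a range up to 0.0497. Precision is limited by 3 or 4 wells a day and, in genes near 5 CPM, by counting.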
